A study of Mus musculus with 20 samples.

Results

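The glutathione S-transferases, the UDP-glucuronosyltransferases and the cytosolic sulfotransferases attach glutathione, a sugar or sulfate to drugs, hormones and products of lipid damage, and so make them easier to excrete. They were selected by symbol, as genes named Gst, Mgst, Ugt or Sult followed by their class letter or number, with at least 10 counts in at least 5 of the 20 libraries. Of 68 identifiers whose symbols fitted the pattern, 46 reached this level, out of 15530 of all 25700 identifiers that did. The 46 members were 19 cytosolic and mitochondrial glutathione S-transferases, 3 microsomal ones (Mgst), 17 glycosyltransferases of the Ugt family and 7 sulfotransferases. The 22 genes that missed the limit held at most 11 counts in any library and included Gsta1, Sult1e1 and the whole Sult2a and Sult3a families.

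RNA of 20 mouse libraries was sequenced, 5 in each of 4 groups. The libraries titled Control and Oxalate carry the treatment label untreated, and those titled Control_late and Oxalate_late carry the label alkali therapy. The series describes bicarbonate given as alkali to mice with crystal nephropathy, a kidney injury caused by crystals. The groups are called here control, control on alkali, oxalate and oxalate on alkali. The labels give no tissue, strain, sex, age, dose or duration, do not explain "late", and do not say that libraries came from separate animals, so p-values measure the spread between these libraries only. All alkali groups and no untreated group carry "late", so alkali and whatever that word denotes cannot be told apart.

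Library totals ran from 25547840 to 39550689 counts. Markers of the kidney tubule were abundant: all 18 proximal tubule markers were tested, with a summed level of 62520 to 72430 CPM (counts relative to the library's size, scaled by TMM) in the control libraries. The same sum was 58500 to 66390 CPM in control on alkali, 19750 to 51290 in oxalate and 25570 to 55670 in oxalate on alkali. Library 2 of oxalate on alkali stood nearest to the controls in several results below. Adipoq, a fat cell transcript, was above 1 CPM in 6 libraries, namely controls 26 and 9, controls on alkali 1 and 4, oxalate 32 and oxalate on alkali 33. Several results that change without them are given below.

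Conjugation is a late step in detoxification. Glutathione S-transferases join glutathione to electrophiles, and the conjugate is then trimmed by peptidases on the tubule brush border and acetylated to a mercapturate. Ugt enzymes of the first and second families mostly use UDP-glucuronic acid, whereas sulfotransferases use the sulfate donor PAPS. The proximal tubule of the kidney is rich in all of these enzymes and in the transporters that export their products.

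The 9 Ugt1a genes lie in one locus on chromosome 1 and share most of their sequence, which decides how their values can be read. Each gene has a first exon of its own, which encodes the substrate-binding part, spliced to the same later exons. The junctions below are from GENCODE M21 on GRCm38, 5′ to 3′, with the last 30 bases of the first exon in lower case and the first 20 bases of the shared second exon, which starts at chr1:88215044-88215175 on the plus strand, in capitals.
Ugt1a1: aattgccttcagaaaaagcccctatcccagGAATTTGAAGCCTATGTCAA
Ugt1a2: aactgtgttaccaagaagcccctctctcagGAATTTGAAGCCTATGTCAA
Ugt1a5: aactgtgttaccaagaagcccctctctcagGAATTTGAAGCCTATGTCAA
Ugt1a6a: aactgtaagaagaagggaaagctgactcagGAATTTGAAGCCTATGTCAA
Ugt1a6b: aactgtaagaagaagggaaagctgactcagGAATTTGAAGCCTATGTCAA
Ugt1a7c: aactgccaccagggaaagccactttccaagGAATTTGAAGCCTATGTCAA
Ugt1a9: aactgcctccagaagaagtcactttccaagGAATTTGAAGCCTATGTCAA
The capitals are the same in every gene, and the lower-case ends of Ugt1a2 and Ugt1a5, and of Ugt1a6a and Ugt1a6b, are identical to each other. The exons of the 9 genes have 1311 bases in common, in 4 blocks between 88215044 and 88218997. The counts of 8 of the 9 rows were almost the same in each library, where the largest difference was 2.12% of the smallest row. The row of Ugt1a7c held 26.22% to 57.13% more than the common reads. The 9 rows are treated here as 1 measurement, the common reads, plus the excess of a row over it. The 46 members are 38 separate measurements when the reads common to the 9 rows are counted once, and counts are given both ways below.

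In the controls the members ran over more than 4 orders of magnitude in CPM per kilobase of exon. Ugt3a2 (chr15:9335550-9370955), whose human counterpart uses UDP-glucose rather than glucuronic acid, stood highest at 657 CPM per kb, and Ugt2b38 was close at 622 CPM per kb. Gstm1, a mu-class transferase, followed at 324 CPM per kb and Sult1d1, a sulfotransferase of catecholamines and eicosanoids, at 307 CPM per kb. The lowest was Sult4a1, a sulfotransferase named from the brain with little known activity, at 0.0271 CPM per kb. All members together, with the Ugt1a reads once, took 0.675% ± 0.0410 (SD, n = 5) of the counts in control, 0.645% ± 0.00906 in control on alkali, 0.517% ± 0.0605 in oxalate and 0.482% ± 0.0820 in oxalate on alkali. The share of the Ugt family was 0.418% in control and 0.258% in oxalate, while the share of the Gst members was 0.167% and 0.183%. These are shares of the raw library totals, without TMM. With TMM, the median log2 fold change of the 19 Gst members was -0.11 in oxalate against control.

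Between oxalate and control without alkali, 7 members were higher and 21 lower (edgeR quasi-likelihood test, Benjamini-Hochberg adjusted p below 0.05 over 15430 genes). With the Ugt1a reads once, 7 of 38 were higher and 13 lower. Over all genes tested, 26.4% were higher and 23.1% lower (49.4% either way), so the share of members called higher, 18.4% of the 38, was below and the share lower, 34.2%, above the background. The median log2 fold change was -0.14 over the 38 and -0.0004 over all genes. By family, of 9 Ugt measurements 6 were lower and none higher (median -0.88), of 19 Gst 4 were lower and 3 higher (median -0.11), of 7 Sult 3 were lower and 3 higher, and of 3 Mgst 1 was higher. The families were not tested against each other. Scaling by total counts instead of TMM moves the median of all genes to 0.30, and gives 12 members higher and 17 lower, which moves the split toward higher.

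**Figure D1:**
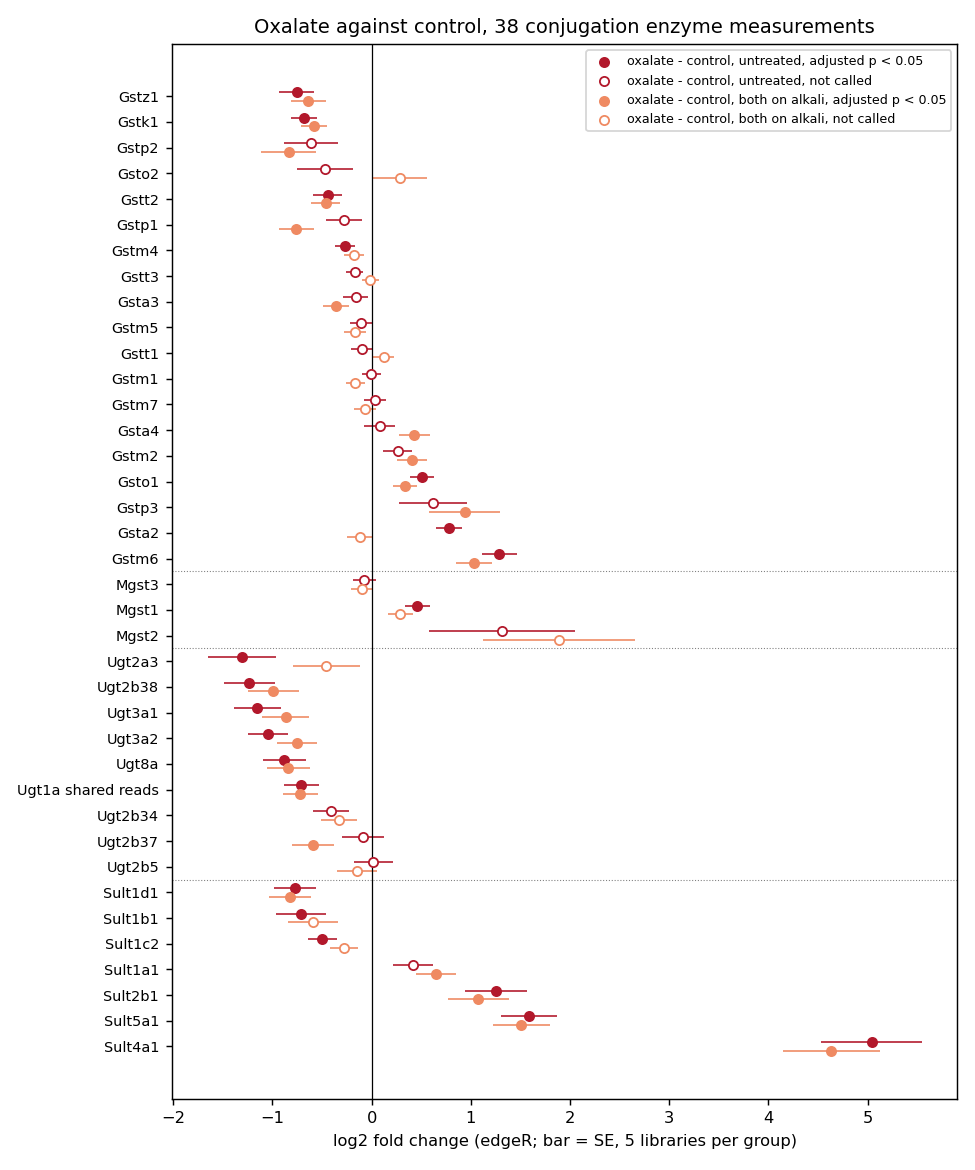
Log2 fold change of oxalate against control for the 38 measurements, without alkali (dark) and on alkali (light), with the standard error as the bar, ordered by family and by fold change. Filled points have an adjusted p below 0.05. No Ugt measurement is filled on the higher side in either comparison, and Sult4a1 stands far to the right.

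The Ugt genes were the largest group among the lower measurements, 6 of 13. Ugt3a2 was 1736, 1821, 2006, 2208 and 2425 CPM in the control libraries and 594, 866, 988, 1185 and 1311 CPM in oxalate. The groups did not overlap, and the log2 fold change was -1.04 ± 0.20 (SE, edgeR adjusted p = 0.000363). Ugt2b38, one of the abundant Ugt2b genes of mouse kidney, was 1027 to 1315 CPM in control and 267, 439, 540, 544 and 709 CPM in oxalate. Its log2 fold change was -1.23 ± 0.26 (edgeR adjusted p = 0.000684), with the caution that 37.4% of its 50-base stretches occur in another gene, chiefly Ugt2b5, so reads may be shared.

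Ugt3a1, the neighbour of Ugt3a2, whose human counterpart uses UDP-N-acetylglucosamine, was 192 to 303 CPM in control and 55.7 to 146 CPM in oxalate (log2 fold change -1.16 ± 0.24, edgeR adjusted p = 0.000586). Ugt8a, which makes the galactolipids of myelin and of kidney sulfatide, was 137 to 185 CPM in control and 53.8 to 115 CPM in oxalate (log2 fold change -0.88 ± 0.22, edgeR adjusted p = 0.00233). Ugt2a3, low at 1.85 to 2.71 CPM in control, was 0.389 to 1.20 CPM in oxalate (log2 fold change -1.31 ± 0.34, edgeR adjusted p = 0.00379). In these 3 genes no oxalate library reached the lowest control. The other Ugt2 genes did not pass: Ugt2b34 at -0.40 ± 0.18 (edgeR adjusted p = 0.0695), Ugt2b37 at -0.09 ± 0.21 (0.751) and Ugt2b5 at 0.02 ± 0.20 (0.956).

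For the Ugt1a locus, the reads common to all 9 genes were counted once. Ugt1a9, whose row holds almost nothing else, was 507, 509, 579, 657 and 667 CPM in control and 249, 344, 369, 378 and 449 CPM in oxalate. The groups did not overlap, and the common reads had a log2 fold change of -0.71 ± 0.18 (edgeR adjusted p = 0.00277). There were 7100 to 16656 common reads a library. The rows of Ugt1a1 (the bilirubin-conjugating enzyme), Ugt1a2, Ugt1a5, Ugt1a8, Ugt1a9 and Ugt1a10 held almost nothing beyond them. Each of these genes has 879 to 949 exon bases of its own, yet the median excess was 0 to 31 reads a library. Few reads were thus counted on bases of their own. The common reads themselves were not assigned to single genes. For a few genes the excess of the row over the common reads could be tested. It includes bases that some other Ugt1a genes share, 993 for Ugt1a7c, 859 for Ugt1a6a and 133 for Ugt1a6b, so the excesses cannot be compared gene against gene. The excess of Ugt1a7c fell by 0.89 ± 0.23 on the log2 scale (edgeR adjusted p = 0.00387). The exon bases annotated for Ugt1a7c alone are its first exon (chr1:88095062-88095978, 917 bases) and a 998-base extension of the last exon (chr1:88219005-88220002). The excess of Ugt1a6b, 1.0 to 2.12 CPM in control and 0.206 to 0.672 CPM in oxalate, fell by 1.83 ± 0.33 (edgeR adjusted p = 0.000208). It was only 9 to 23 reads a library in oxalate, and 79.6% of the 50-base stretches of Ugt1a6b also occur in Ugt1a6a. In oxalate against control on alkali it was not called (-0.64 ± 0.31, edgeR adjusted p = 0.107). The excess of Ugt1a6a had a log2 fold change of -0.02 ± 0.19 without alkali (edgeR adjusted p = 0.948) and that of Ugt1a10 one of 1.13 ± 0.59 (adjusted p = 0.118).

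**Figure D2:**
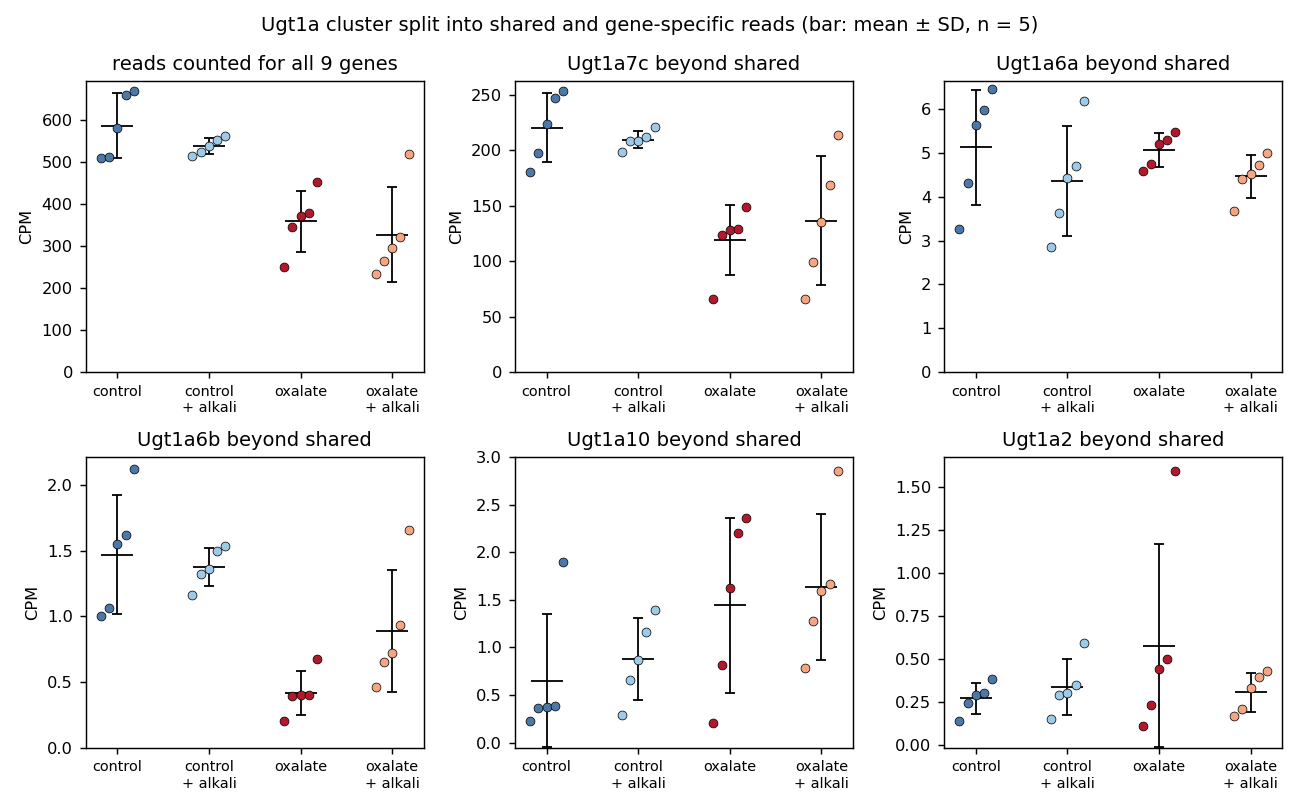
Reads of the Ugt1a locus in CPM by group, split into the reads counted for all 9 genes and the excess of 5 of the genes over them. Points are libraries and bars are the mean ± SD (n = 5). The common reads and the excesses of Ugt1a7c and Ugt1a6b sit lower in oxalate than in control.

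The proximal tubule markers moved with these genes. In the same comparison 17 of 18 were lower and none higher (median log2 fold change -0.87), against -0.88 for the Ugt family, and none of the 18 markers was at 0. A list of 9 genes more abundant in male than in female mouse kidney was lower in 9 of 9 (median -1.22). It shares Kap and Slc22a30 with the 18 markers, so it is not a separate observation. Of 6 genes more abundant in female kidney, 2 were higher and 1 lower (median -0.02). In bulk RNA, fewer cells of a type and less RNA per cell cannot be told apart, and the part of either in the fall of the Ugt genes was not tested. The 10 macrophage and monocyte markers were all higher, with a summed level of 126 to 174 CPM in control and 729 to 2890 CPM in oxalate.

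Among the Gst members, the lower genes were Gstz1, Gstk1, Gstt2 and Gstm4. Gstz1, the zeta enzyme that isomerises maleylacetoacetate in tyrosine breakdown, was 360, 382, 386, 407 and 423 CPM in control and 137, 204, 230, 285 and 304 CPM in oxalate. The groups did not overlap, and the log2 fold change was -0.75 ± 0.17 (edgeR adjusted p = 0.00154). Parts of its exons lie on the opposite strand of Gm6566 and Pomt2. Gstk1, the mitochondrial and peroxisomal kappa enzyme, went from 57.3 to 72.3 CPM in control to 28.3 to 52.0 CPM in oxalate (log2 fold change -0.68 ± 0.13, edgeR adjusted p = 0.000377). Gstt2, of the theta class, had a log2 fold change of -0.44 ± 0.15 (edgeR adjusted p = 0.0162) and Gstm4 one of -0.27 ± 0.10 (adjusted p = 0.0328). Under total-count scaling neither passes, and Gstm4 turns to 0.02.

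The higher genes were Gstm6, Gsta2 and Gsto1. Gstm6, a low-level mu transferase, was 1.44, 1.51, 1.87, 1.90 and 2.10 CPM in control and 3.06, 3.51, 4.66, 5.12 and 5.16 CPM in oxalate. All oxalate libraries were above all controls, at a log2 fold change of 1.29 ± 0.18 (edgeR adjusted p = 1.24e-05). Gsta2 (chr9:78331018-78355788), an alpha enzyme that reduces lipid hydroperoxides, was 83.5, 90.1, 102, 114 and 120 CPM in control and 142, 145, 155, 194 and 239 CPM in oxalate. The groups again did not overlap, at 0.78 ± 0.13 (edgeR adjusted p = 8.30e-05). Of its 50-base stretches, 49.8% also occur elsewhere, mostly in Gsta1, whose own row held at most 10 counts in any library. Gsto1, the omega enzyme with thioltransferase and dehydroascorbate reductase activity, rose by 0.51 ± 0.12 (edgeR adjusted p = 0.00169). Gstm1, the most abundant transferase per kb, had a log2 fold change of -0.00 ± 0.10 (edgeR adjusted p = 0.985) and Gstp1 one of -0.28 ± 0.18 (adjusted p = 0.199). The 6 Gstm genes lie side by side on chromosome 3, between 107895821 and 108044894, and of these Gstm6 was higher, Gstm4 lower and the other 4 not called. With total-count scaling Gstm1 is called higher, at 0.30.

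Among the microsomal enzymes Mgst1, which also has glutathione peroxidase activity, was 60.6 to 70.4 CPM in control and 81.2 to 103 CPM in oxalate (log2 fold change 0.46 ± 0.13, edgeR adjusted p = 0.00543). No oxalate library overlapped a control. Mgst3 had a log2 fold change of -0.07 ± 0.11 (edgeR adjusted p = 0.621). Mgst2, a leukotriene C4 synthase relative, reached 10 counts in 1 control library and in all 5 oxalate libraries. Its log2 fold change of 1.32 ± 0.74 (edgeR adjusted p = 0.144) did not pass, and without the Adipoq libraries it is 2.81 (adjusted p = 0.00854). Leaving those libraries out was chosen after seeing the data. Mgst2 also entered the list through the oxalate groups, which favours a higher value there, so this fit is no support for a rise.

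Of the 7 sulfotransferases 3 were lower and 3 higher. Sult1d1 was 586, 693, 783, 841 and 873 CPM in control and 282, 417, 490, 499 and 521 CPM in oxalate, with a log2 fold change of -0.77 ± 0.21 (edgeR adjusted p = 0.00561). No oxalate library reached the lowest control. Sult1c2 had -0.50 ± 0.14 (edgeR adjusted p = 0.00778) and Sult1b1, which sulfates thyroid hormones, -0.71 ± 0.25 (adjusted p = 0.0229), and both lose the call under total-count scaling. Sult1a1, the other Sult1 gene, which sulfates phenols, was on the opposite side at 0.42 ± 0.20 (edgeR adjusted p = 0.0877), and passes under total-count scaling at 0.74 (adjusted p = 0.0108). The 3 higher were Sult5a1, Sult2b1 and Sult4a1. Sult5a1 was 1.18 to 1.88 CPM in control and 2.50, 3.21, 4.39, 4.98 and 6.06 CPM in oxalate (log2 fold change 1.59 ± 0.28, edgeR adjusted p = 0.000162). Sult2b1, the cholesterol and pregnenolone sulfotransferase, had 1.26 ± 0.31 (edgeR adjusted p = 0.00266), with parts of its exons opposite Lmtk3.

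Sult4a1 was near absent in the controls, at 1 to 3 counts a library, and was 1.34, 1.39, 2.47, 2.56 and 4.06 CPM in oxalate. The summed counts were 9 in control and 419 in oxalate, a ratio of 35.3 with a 95% exact interval of 18.4 to 77.7 that covers counting error only. It reached 10 counts only in the 10 oxalate libraries, with or without alkali, so it entered the list through the groups where it is high and had to differ. Gstp3, a pi-class gene, reached 10 counts in 3 control libraries and in 1 control on alkali, and Mgst2 in 1 and 0, so these also entered through the oxalate groups. Without these 3, 6 of 35 measurements were higher and 13 lower.

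**Figure D3:**
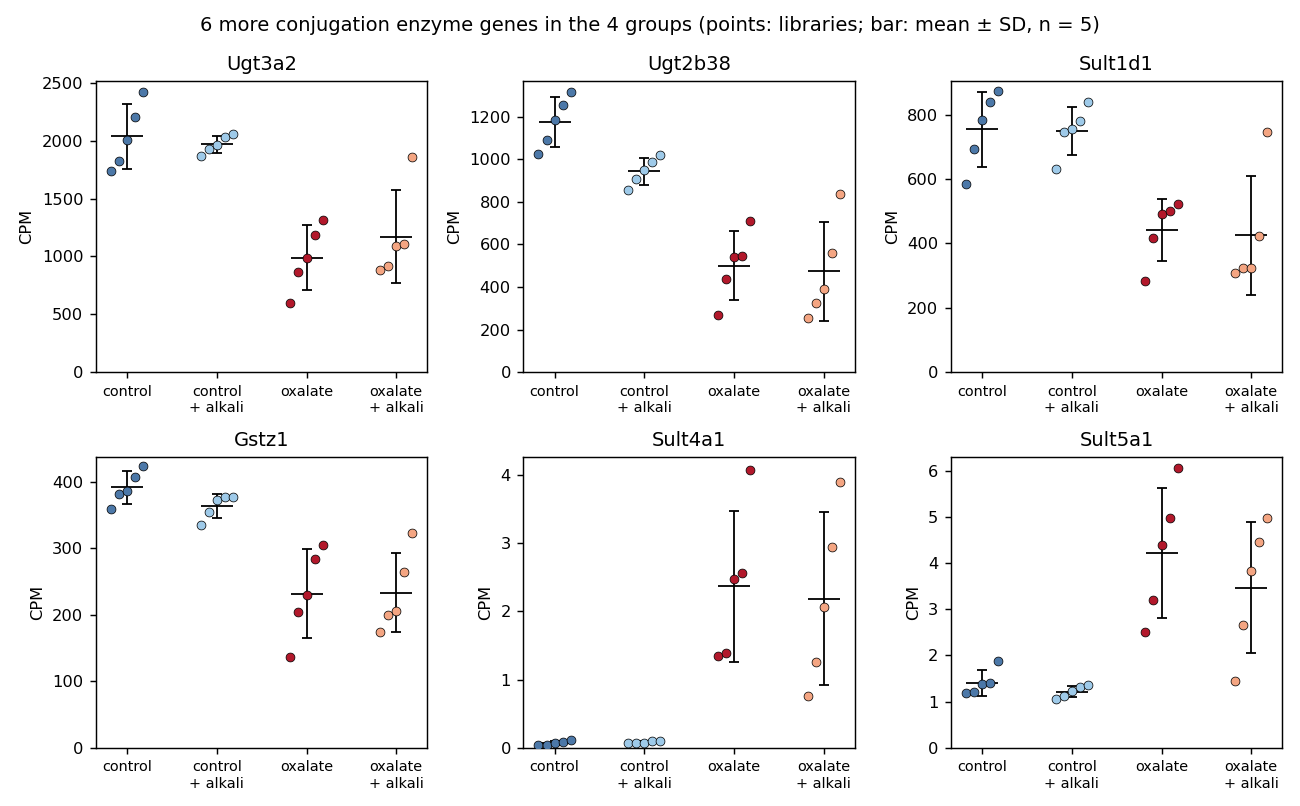
CPM by group of Ugt3a2, Ugt2b38, Sult1d1, Gstz1, Sult4a1 and Sult5a1. Points are libraries and bars are the mean ± SD (n = 5). The first 4 genes are lower and the last 2 higher in the oxalate groups, and library 2 of oxalate on alkali is the highest point of its group for Ugt3a2, Ugt2b38, Sult1d1 and Gstz1.

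The same contrast on alkali, oxalate on alkali against control on alkali, uses none of the libraries above. It called 9 members higher and 21 lower, or 9 and 13 of 38 with Ugt1a once, against a background of 23.4% higher and 17.1% lower (40.4% either way). Of the 9, Sult4a1 and Gstp3 entered the list through the oxalate groups, which favours a call on the higher side. Without them and Mgst2, 7 of 35 were higher and 13 lower. The median log2 fold change was -0.17 over the 38 and 0.02 over all genes. Of 38 measurements 33 had the same sign in both contrasts. Higher in both were Gstm6, Gsto1, Sult2b1, Sult4a1 and Sult5a1, 71.4% of the 7 called without alkali and 55.6% of the 9 called on it. Lower in both were Gstk1, Gstt2, Gstz1, Sult1d1, Ugt2b38, Ugt3a1, Ugt3a2, Ugt8a and the Ugt1a common reads, 69.2% of each list. The same shares over all genes were not computed, so neither these nor the sign count are a result about the members.

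On alkali the fold change of Ugt3a2 was -0.75 ± 0.20 (edgeR adjusted p = 0.00814), that of Ugt2b38 -0.99 ± 0.26 (adjusted p = 0.00657) and that of Sult1d1 -0.82 ± 0.21 (adjusted p = 0.00701). The Ugt1a common reads had -0.72 ± 0.18 (adjusted p = 0.00502). Library 2 of oxalate on alkali was high among its group for these genes: Ugt3a2 was 878, 915, 1086 and 1111 CPM in the other 4 and 1863 CPM there, next to the lowest control on alkali at 1865 CPM. Gstp1, the pi-class transferase, was 69.0, 86.2, 87.7, 91.0 and 99.4 CPM in control on alkali and 32, 36.7, 49.3, 63.3 and 74.6 CPM in oxalate on alkali. The groups overlapped in that library alone, and the fold change was -0.76 ± 0.18 (edgeR adjusted p = 0.00364). Gstp2 shares 54.3% of its 50-base stretches, mostly with Gstp1, and had -0.84 ± 0.27 (adjusted p = 0.0213). Gsta4, Gstm2, Gstp3 and Sult1a1 were called higher at 0.43, 0.41, 0.94 and 0.65.

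Several of these calls changed with the libraries used. The count of higher members fell to 4 without library 8 of oxalate on alkali and to 5 without library 33 or 5 of that group. It was also 5 without library 4 of control on alkali, and without the Adipoq libraries. Over all genes, higher calls went from 3604 to 2928 without library 8, 2842 without 33 and 3134 without 5. They were 3714 without library 4 of control on alkali. Without the Adipoq libraries they were 2263, and lower calls went from 2633 to 956. In that fit 10 members and the Ugt1a7c row lost their calls on alkali, among them Gsta4, Gstm2, Gstp2, Gstp3 and Ugt2b37. The adjusted p was then 0.0507 for Gstz1, 0.0644 for Gstt2, 0.0630 for Ugt3a2 and 0.0952 for Ugt3a1, and the log2 fold change of Gsto1 was 0.16 (edgeR adjusted p = 0.409). Proximal tubule markers were lower in 12 of 18 in this contrast (median -0.68), and the median of the Ugt family was -0.72.

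Alkali in the oxalate mice was read by comparing the Oxalate_late and Oxalate libraries. Here 5 members were lower and none higher, against 2.33% lower and 1.76% higher (4.08% either way) of all genes tested. The median log2 fold change was -0.0001 over the 38 and 0.006 over all genes. The 5 were Gsta2, Gstm1, Gstm6, Mgst1 and Ugt2b37, of which 4 are glutathione transferases. No member was called higher by edgeR at adjusted p below 0.05, but DESeq2 called 2, Gstt1 and Sult1c2, and 486 of all genes. At an unadjusted edgeR p below 0.05, in either direction, were 10 of 46 members, the 5 lower calls among them. This was near the 20.5% of all genes. No proximal tubule marker of 18 passed in this comparison (median 0.32). In a separate list of 6 markers of its S1 and S2 segments, 1 was higher and none lower (median 0.62). Of 10 macrophage and monocyte markers 3 were lower and none higher (median -1.02). The part of these cells in the member calls was not tested. The tubular injury markers were lower in 5 of 9 (median -1.38).

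Gsta2 had the clearest fall. It was 142, 145, 155, 194 and 239 CPM in oxalate and 65.7, 67.2, 67.5, 73.8 and 81.2 CPM in oxalate on alkali, with no overlap. The log2 fold change was -1.30 ± 0.13 (edgeR adjusted p = 2.34e-05), and its call held in all 27 alternatives. The oxalate on alkali level was also below 5 of 5 libraries of untreated control, where the lowest was 83.5 CPM. On alkali, oxalate against control had -0.12 ± 0.13 (edgeR adjusted p = 0.484), so no difference between oxalate and control was detected there.

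Ugt2b37 (chr5:87240493-87254804) is 1 of 5 Ugt2 members in a cluster on chromosome 5. It was 133, 151, 156, 163 and 206 CPM in oxalate and 40.5, 47.1, 47.3, 81.0 and 100 CPM in oxalate on alkali, again with no overlap (log2 fold change -1.36 ± 0.22, edgeR adjusted p = 0.00313). A fit of only these 10 libraries gave an adjusted p of 0.0591. Without alkali its oxalate libraries spanned the control range of 156 to 185 CPM. Gstm1 was 409, 440, 478, 480 and 577 CPM in oxalate and 319, 334, 355, 356 and 381 CPM in oxalate on alkali (-0.45 ± 0.10, edgeR adjusted p = 0.0144). The groups did not overlap, but without oxalate library 12 the adjusted p was 0.0525.

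Gstm6 and Mgst1 gave weaker calls. Gstm6 was 2.20 to 3.37 CPM in oxalate on alkali against 3.06 to 5.16 CPM in oxalate (-0.63 ± 0.17, edgeR adjusted p = 0.045), and lost its call in 17 of 27 alternatives. Mgst1 was 47.0 to 86.9 CPM against 81.2 to 103 CPM (-0.47 ± 0.13, edgeR adjusted p = 0.040), and lost it in 11. In both the groups overlapped. Fitting only the 2 groups left 1 call of the 5, Gsta2, and leaving out 1 library at a time gave 2 to 6 lower calls: 2 without oxalate library 12, and 3 without oxalate library 3 or 40, oxalate on alkali library 8 or 30, or control library 9. Over all genes, lower calls went from 359 to 14 in the fit of 2 groups and to 92 without oxalate library 12.

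**Figure D4:**
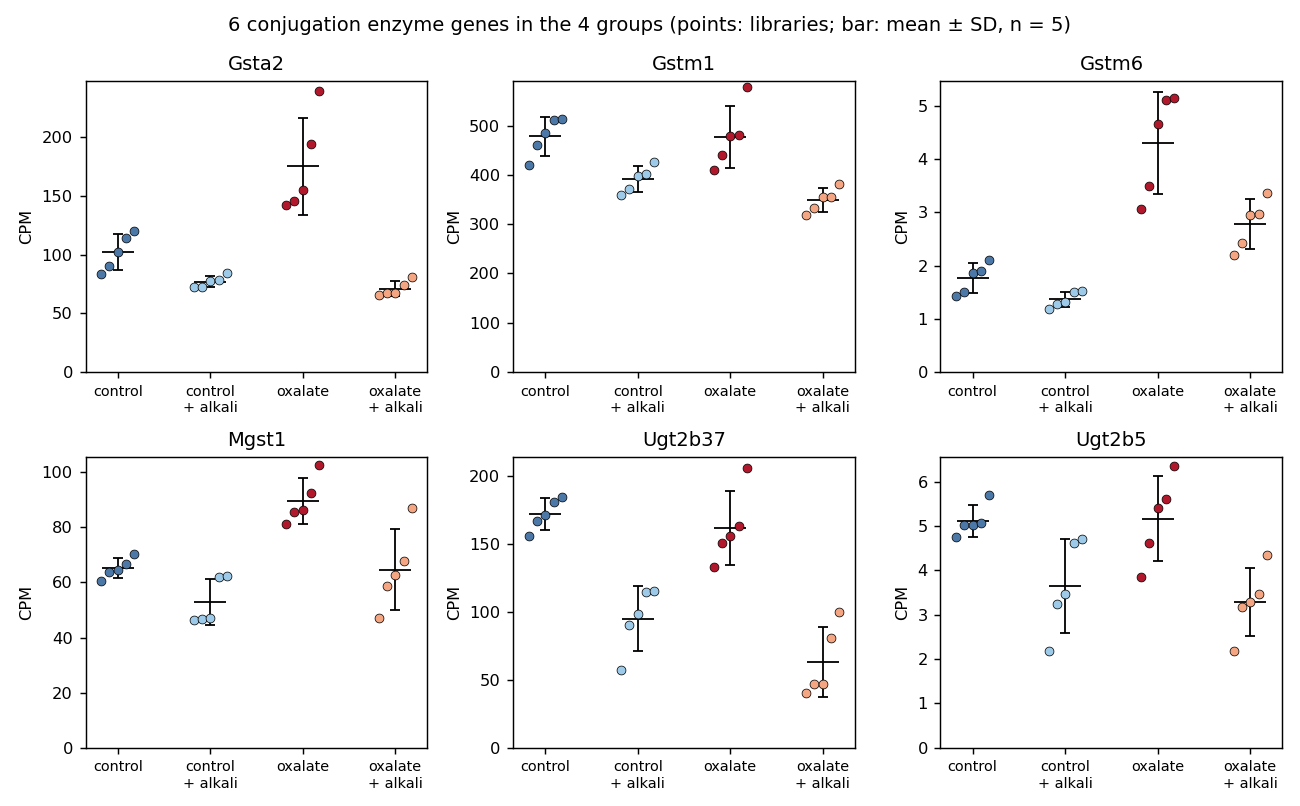
CPM by group of Gsta2, Gstm1, Gstm6, Mgst1, Ugt2b37 and Ugt2b5. Points are libraries and bars the mean ± SD (n = 5). Gsta2 and Ugt2b37 are lower in oxalate on alkali than in all 5 oxalate libraries, and the control on alkali points of Ugt2b37 and Ugt2b5 lie below all control points.

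In control mice, edgeR called no member and no gene of the 15430 with alkali (0% either way), and DESeq2 called 3 genes, none of them a member. At an unadjusted p below 0.05 were 5 of 46 members, all lower, against 2.52% of all genes. They were Gsta2, Gstm1, Mgst1, Ugt2b37 and Ugt2b5. Ugt2b37 was 156, 167, 171, 181 and 185 CPM in control and 56.9, 90.6, 98.3, 115 and 115 CPM in control on alkali. These groups did not overlap, and the log2 fold change of -0.86 ± 0.22 had an edgeR adjusted p of 1. Gsta2 had -0.40 ± 0.13, with overlapping groups. In 20 of 38 measurements the sign was the same as in oxalate mice, a comparison that shares no library with this one. The same share over all genes was not computed, so the sign count is not a result about the members.

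**Figure D5:**
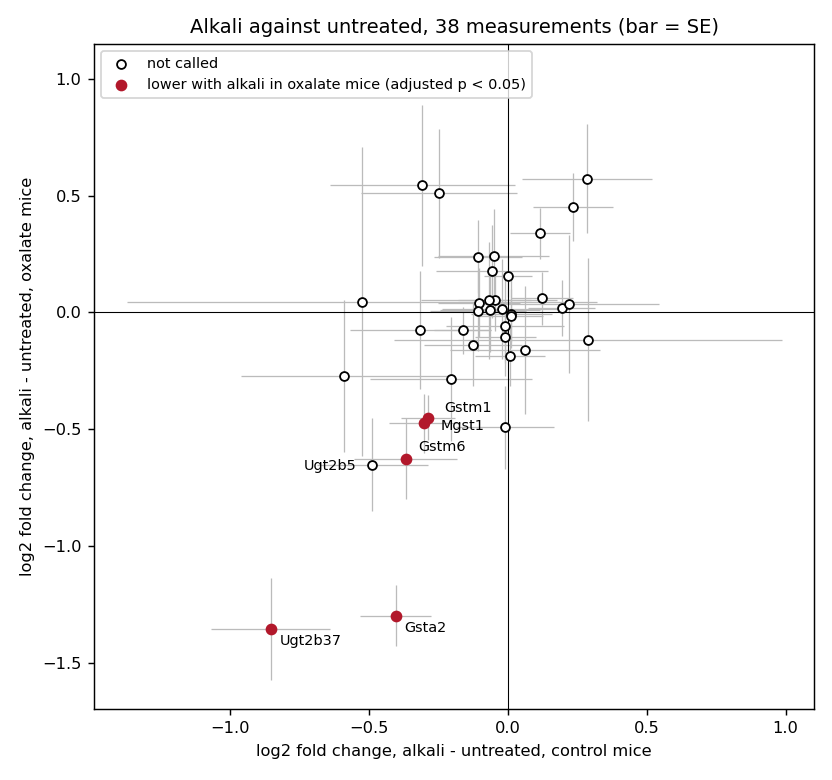
Log2 fold change of alkali against untreated for the 38 measurements, control mice on the x axis and oxalate mice on the y axis, with standard errors as bars. Filled points were called lower in oxalate mice, so they sit below 0 on the y axis. All 5 also sit below 0 on the x axis, where 27 of all 38 measurements lie below 0.

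The interaction tested whether the difference with alkali was the same in oxalate and control mice. No member passed by edgeR, nor did any of the 15430 genes (0%), and 1 of 46, Gsta2, had an unadjusted p below 0.05, against 9.26% of all genes. Its interaction was -0.89 ± 0.18 on the log2 scale (edgeR adjusted p = 0.32), while DESeq2 gave an adjusted p of 0.00889. The fall of Gsta2 was thus -1.30 in oxalate and -0.40 in control mice, a difference that DESeq2 called and edgeR did not.

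Promoters of 3 of the genes that fell together with alkali are shown, searched for the elements through which conjugation enzymes are known to be induced. Each runs from 250 bases before to 50 after the RefSeq start on GRCm38.p6, 5′ to 3′ on the strand of the gene, with motif matches in capitals.
Gsta2 (chr9:78347096-78347395, minus strand): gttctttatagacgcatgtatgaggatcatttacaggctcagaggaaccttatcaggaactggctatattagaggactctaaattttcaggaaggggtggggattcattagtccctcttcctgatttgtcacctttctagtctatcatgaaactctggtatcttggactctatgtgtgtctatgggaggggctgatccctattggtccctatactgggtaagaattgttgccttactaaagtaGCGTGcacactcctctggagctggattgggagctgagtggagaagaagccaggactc
Mgst1 (chr6:138140277-138140576, plus strand): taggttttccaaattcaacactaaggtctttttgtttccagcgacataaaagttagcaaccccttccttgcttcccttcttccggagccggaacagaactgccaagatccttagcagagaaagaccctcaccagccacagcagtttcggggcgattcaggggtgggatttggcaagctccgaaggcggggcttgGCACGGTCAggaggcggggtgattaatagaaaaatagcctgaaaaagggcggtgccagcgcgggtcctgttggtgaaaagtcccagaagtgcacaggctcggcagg
Ugt2b37 (chr5:87254739-87255038, minus strand): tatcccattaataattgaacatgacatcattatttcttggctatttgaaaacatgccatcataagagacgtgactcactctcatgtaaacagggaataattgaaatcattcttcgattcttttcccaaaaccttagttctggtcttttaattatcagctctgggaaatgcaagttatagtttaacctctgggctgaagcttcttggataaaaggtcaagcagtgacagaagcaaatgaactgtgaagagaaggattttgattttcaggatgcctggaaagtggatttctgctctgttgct
The motifs searched, on both strands, were TGACNNNGC, the core of the antioxidant response element bound by NRF2, and GCGTG, the core of the xenobiotic response element bound by AHR. The first matched 3 of 41 members with a promoter (Gsta3, Gstm5 and Mgst1) and 12.4% of 32851 promoters, and the second 11 of 41 and 32.4%. In the window above Gsta2 has a match to the second motif and none to the first, Mgst1 one to the first and Ugt2b37 neither. The Gsta2 window lies 8643 bases from the GENCODE gene start, so another start may be used. A match is a description and not a site of binding.

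The counts below for pathways that feed and follow conjugation stand beside 49.4% of all genes called in oxalate against control without alkali, 26.4% higher and 23.1% lower. No list was tested against the other genes. Among 13 genes of glutathione synthesis and recycling, 6 were lower and 1 higher in oxalate than control without alkali (median -0.41). Cbs, which makes cystathionine from homocysteine, had -1.12 ± 0.19 (edgeR adjusted p = 9.92e-05), and Cth, which releases cysteine from it, -0.93 ± 0.19 (adjusted p = 0.000483). The higher one was Slc7a11, the cystine importer, at 0.188 to 0.339 CPM in control and 1.40 to 8.41 CPM in oxalate (3.69 ± 0.50, edgeR adjusted p = 1.05e-05). On alkali it was 0.626 to 2.06 CPM in the oxalate mice (-1.43 ± 0.42, adjusted p = 0.0594). For the breakdown of glutathione conjugates, 15 genes under 16 identifiers, 9 were lower and 4 higher. Dpep2, a dipeptidase found on myeloid cells and counted under 2 identifiers with like values, had 4.41 ± 0.53 (edgeR adjusted p = 3.00e-06). With alkali in the oxalate mice, Anpep, aminopeptidase N of the brush border, fell by 0.55 ± 0.13 (edgeR adjusted p = 0.0258) and Dpep2 by 1.61 ± 0.45 (adjusted p = 0.0453).

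Of 8 genes of UDP-glucuronic acid supply, 5 were lower and 1 higher (median -0.45), with Slc35d1, which carries UDP-sugars into the endoplasmic reticulum, at -0.67 ± 0.12 (edgeR adjusted p = 0.000148). Of 15 genes of sulfate and PAPS supply, 7 were lower and none higher (median -0.31). Bpnt1, which clears the spent donor, had -0.77 ± 0.14 (edgeR adjusted p = 0.000203) and Slc26a1, a basolateral sulfate transporter, -0.81 ± 0.18 (adjusted p = 0.00116). In oxalate on alkali against oxalate, 1 of the 15 was lower and none higher, the sulfate transporter Slc13a4 (-0.81 ± 0.21, edgeR adjusted p = 0.0321). For export, 4 of 9 were higher and 3 lower, with Abcc3 at 2.33 ± 0.40 (adjusted p = 0.000104) and Abcc2 at -0.73 ± 0.17 (adjusted p = 0.00139).

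Other conjugating enzymes outside these families were lower in 14 of 21 and higher in 2 (median -0.62), among them Tpmt, thiopurine methyltransferase, at -0.82 ± 0.16 (edgeR adjusted p = 0.000326) and Nat2, an arylamine acetyltransferase, at -0.90 ± 0.16 (adjusted p = 0.000147). Of 11 deconjugating sulfatases and glucuronidases 6 were lower and 1 higher. Of relatives of the glutathione transferases outside the symbol rule 7 of 12 were higher and 2 lower, with Hpgds, the prostaglandin D synthase, at 0.791 to 2.07 CPM in control and 5.33 to 25.1 CPM in oxalate (3.22 ± 0.43, edgeR adjusted p = 7.44e-06). Alox5ap, which serves leukotriene synthesis, had 2.7 ± 0.29 (adjusted p = 9.67e-07). Macrophage markers were higher in the same libraries, and their part was not tested.

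Of 15 targets of NRF2, the factor that induces many glutathione genes, 3 were higher and 4 lower in oxalate, a share near the 49.4% of all genes and so not a result about the targets. Gclm, a subunit of the enzyme that starts glutathione synthesis, had -0.77 ± 0.16 (edgeR adjusted p = 0.000585), and Nfe2l2 itself 0.41 ± 0.08 (adjusted p = 0.000441). Nqo1 was the 1 target lower with alkali in oxalate mice, at 40.7 to 69.8 CPM on alkali against 62.3 to 76.3 CPM without it (-0.41 ± 0.11, edgeR adjusted p = 0.0389). Of 20 regulators 4 were higher and 6 lower in oxalate, again near that share, and none passed with alkali. Of these, Nr1i3, the constitutive androstane receptor, had -1.60 ± 0.46 (edgeR adjusted p = 0.0561) at under 1 CPM. Of 5 AHR targets 1 was higher, Cyp1b1 at 1.72 ± 0.22 (edgeR adjusted p = 5.76e-06), and 1 lower.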

How the data were processed

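The deposited files hold whole-number counts per Ensembl mouse gene, raw, as the authors made them. The submitters' processing notes name bcl2fastq 2.19, Trimmomatic, STAR 2.7.1, featureCounts and edgeR and the build GRCh38.p5, which is a human build, while the identifiers are mouse. Libraries were stranded poly(A) TruSeq, per the labels, and the strand setting of the counting is not given in the sources used here. Symbols, exons and coordinates came from GENCODE M21 (GRCm38), promoters from RefSeq (GRCm38.p6). 25587 of 25700 identifiers had symbols, and the other 113 held at most 0.0541% of a library.

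All 20 libraries entered one edgeR 4.0.16 fit (R 4.3.3, TMM, a group mean each, filterByExpr with a minimum count of 10), leaving 15430 genes and removing 10270. All 46 members were tested. Adjusted p below 0.05 is called, and the SE is the log2 fold change divided by the root of the F statistic. Genes named are the 6 largest called changes each way per comparison among members of mean log2 CPM of at least 1, the member highest per kb in each class, all Ugt1a genes, members sharing at least 30% of their 50-base stretches with another gene, and up to 3 genes of smallest p per pathway list. Others were named after their values were seen. Members and lists were chosen with earlier results of these data known. Alternatives were RLE and total-count scaling, no filter, DESeq2 1.42.0, a fit of the compared groups only and leaving out each library. Counting Ugt1a once and leaving out the Adipoq libraries were chosen after seeing the data. The fit was tested on simulated data.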

Additional observations from a re-analysis of the deposited data

Results flagged for a closer look

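Of 152 groups of 5 libraries checked, 5 held a library far from its group, and chance flags about 1 in 20 groups. Library 2 of oxalate on alkali stood high for 3 members: Sult1d1 at 748 CPM against 308 to 422 CPM in the others, Ugt3a1 at 291 CPM against 127 to 139 CPM, and Ugt3a2 at 1863 CPM against 878 to 1111 CPM. Library 33 of the same group, which holds Adipoq at 35.4 CPM, had Mgst2 at 2.06 CPM against 0.0344 to 0.462 CPM. Control library 9, with Adipoq at 20.1 CPM, had Sult1a1 at 22.4 CPM against 11.6 to 13.3 CPM.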

How the results depend on the processing

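RLE scaling changed no call among the members. Total-count scaling moves the median of all genes to 0.30 in oxalate against control and to 0.24 on alkali. It gave 12 members higher in oxalate than control without alkali (7498 of all 15430 genes). It gave 3 lower with alkali in oxalate mice (297 of all genes). It turned Gstm1 from -0.00 to 0.30 and Gstm4 from -0.27 to 0.024. Fitting only the 2 compared groups gave 1 member lower with alkali in oxalate mice and 5 higher in oxalate against control on alkali. Without the count filter, 5 members were higher in the latter. DESeq2 gave 2 higher with alkali in oxalate mice and 1 lower for the interaction. Without the 6 libraries with Adipoq, 2 members were higher with alkali in oxalate mice and 5 higher in oxalate against control on alkali. Counting Ugt1a once gave 13 lower in each oxalate contrast. Leaving out 1 library at a time gave 7 to 8 members higher and 19 to 23 lower in oxalate against control without alkali, 0 to 2 higher and 2 to 6 lower with alkali in oxalate mice, 4 to 11 higher and 18 to 22 lower in oxalate against control on alkali, and 0 for alkali in control mice and for the interaction. The cause was not tested. No paired analysis was possible because the groups share no replicate numbers in the labels. Depth limits Sult4a1, Mgst2 and Gstp3, which missed 10 counts in some libraries.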

Other observations

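The reads of Ugt1a7c beyond those common to the Ugt1a locus, as a percentage of the common reads, were 35.45 to 38.59 in control, 37.18 to 41.1 in control on alkali and 26.22 to 37.24 in oxalate. In oxalate on alkali they were 28.21, 30.88, 41.14, 51.29 and 57.13, with libraries 8 and 30 the highest of all 20. These reads cannot be assigned to 1 part of the exons from the counts alone.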
